A study of Zea mays with 2 samples.

Results

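The regions described here are the MNase hypersensitive sites in the interior of the short arms of maize (Zea mays) chromosomes 7, 8, 9 and 10. They were chosen by position alone: a site is a member when its summit, the base of highest signal in a called peak, lies at 5 to 41 Mb of chromosome 7, 5 to 36 Mb of chromosome 8, 5 to 40 Mb of chromosome 9 or 5 to 37 Mb of chromosome 10, on B73 RefGen_v4. The outermost 5 Mb and the stretch around the centromere are thereby left out. The 4 interiors held 4141 of the 66801 merged peaks (6.20%), with 1012 on chromosome 7, 1098 on chromosome 8, 1236 on chromosome 9 and 795 on chromosome 10. They were set against the long arm interiors of the same chromosomes, at 71 to 177.4 Mb, 66 to 176.1 Mb, 70 to 154.8 Mb and 67 to 146 Mb, which held 13369 merged peaks.

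MH-seq sequences the short DNA fragments that micrococcal nuclease (MNase) frees from the most open chromatin. Both libraries, replicates 1 and 2, belong to 1 group: leaf of B73, the inbred line of the maize reference genome, taken from plants 10 days old, fixed with formaldehyde and digested as nuclei with 100 U of MNase. Fragments of 40 to 100 bp were recovered. A heavy digestion with 900 U also appears in the protocol, but both libraries carry the 100 U label. Per the labels' protocols, tissue from 10 plants was pooled, and nothing in the labels says that the replicates are separate collections, so their spread may be technical. There is no undigested, naked-DNA or other-tissue group. The peaks were not assigned to genes, so the leaf label was not checked against marker genes.

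Each chromosome arm of maize runs from a gene-rich, frequently recombining outer part to heterochromatin around the centromere that is filled with nested retrotransposons and rarely recombines. Open chromatin in plants concentrates at promoters, downstream gene ends and distal regulatory elements, where transcription factors keep nucleosomes away. On the short arm of chromosome 9 lie classical kernel genes for pigment and waxy starch, long used to study transposable elements, and the short arm of chromosome 7 carries opaque2, a regulator of seed storage protein genes. The positions of these genes in the build used here were not looked up.

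Sites were sparser in the short arms than in the long arms on chromosomes 7 and 10 and nearly equal in density on chromosomes 8 and 9. In the merged list the short arm interior of chromosome 7 held 28.1 summits per Mb, against 34.0 in its long arm interior, a ratio of 0.828. Chromosome 10 held 24.8 summits per Mb in the short arm and 35.4 in the long arm, a ratio of 0.701. Chromosome 8 held 35.4 in the short arm and 35.8 in the long arm (ratio 0.990), and chromosome 9 held 35.3 and 35.6 (ratio 0.993). The long arms thus lay between 34.0 and 35.8 summits per Mb, and the short arms formed a sparser and a denser pair.

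Each replicate gave the same order of the 4 short arms. In the short arm of chromosome 7 replicate 1 had 31.9 and replicate 2 had 25.2 summits per Mb (mean 28.5 ± 4.73, SD, n = 2), against 38.1 and 31.2 in the long arm (34.6 ± 4.87). In the short arm of chromosome 10 they had 28.2 and 22.2 (25.2 ± 4.26), against 39.6 and 32.7 in the long arm (36.2 ± 4.90). Replicate 1 lists more peaks in every arm here, so the arms were compared within a library: on chromosome 7 the replicate 1 value of the short arm lies above the replicate 2 value of the long arm, while on chromosome 10 both short arm values lie below both long arm values. Within libraries the short-to-long ratio was steady: 0.837 and 0.808 on chromosome 7 (mean 0.822 ± 0.0210, SD, n = 2) and 0.712 and 0.679 on chromosome 10 (0.695 ± 0.0236). On chromosome 8 it was 0.994 and 0.988 (0.991 ± 0.00360), and on chromosome 9 it was 1.00 and 0.972 (0.986 ± 0.0194).

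Over the 4 chromosomes the mean log2 ratio of short over long arm density was -0.20 ± 0.24 (SD), below 0 on 4 of 4 chromosomes. In an exact permutation test that flips the sign of each chromosome's value (two-sided), p was 0.125 (0.25 after adjustment over 10 such tests). That is the smallest p 4 chromosomes allow, so no comparison between the arms can pass 0.05. Chromosome 8, at -0.01, and chromosome 9, at -0.01, contributed almost nothing to the mean, and chromosome 10, at -0.51, contributed most. Without chromosome 10 the mean was -0.10.

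A short arm interior lies close to the chromosome end throughout, while most of a long arm interior does not. The short arms were therefore also compared with a distal stretch of the long arm interior of the same length, ending 5 Mb from the other end of the chromosome as the rule's limits place it. At this matched distance from the chromosome end the short arms were sparser on every one of the 4 chromosomes, by about the same amount in both replicates. Chromosome 7 had 28.1 summits per Mb in the short arm and 47.4 in the distal long arm, chromosome 8 had 35.4 and 51.2, chromosome 9 had 35.3 and 47.1, and chromosome 10 had 24.8 and 45.0. The densest short arm, at 35.4, stayed below the sparsest distal stretch, at 45.0. The mean log2 ratio was -0.64 ± 0.20 (SD over 4 chromosomes), or 0.642-fold, and below 0 on 4 of 4 (exact permutation p = 0.125, adjusted 0.25). It was -0.60 in replicate 1 and -0.68 in replicate 2 (mean -0.64 ± 0.06, SD, n = 2).

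Matched instead at the centromere side, most short arms were the denser ones. Against the stretch of equal length at the inner limit of the long arm interior, chromosome 7 had 28.1 summits per Mb in the short arm and 19.4 in the long arm, chromosome 8 had 35.4 and 25.9, and chromosome 9 had 35.3 and 24.4. Chromosome 10 went the other way, with 24.8 in the short arm and 29.3 in the long arm. The mean log2 ratio was 0.32 ± 0.38, positive on 3 of 4 chromosomes (exact permutation p = 0.25, adjusted 0.278). Without chromosome 10 the mean was 0.51. The short arm of chromosome 10 was sparser than each of the 3 long arm stretches it was set against.

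The libraries' own peak numbers moved with these densities. Replicate 2 listed 0.796 times as many summits as replicate 1 in the short arms, against 0.842 times in the distal long arms, 0.792 times in the proximal ones and 0.818 times in the long arm interiors as a whole. Read totals and mappability along the arms were not analysed here, so their part in the densities was not tested.

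**Figure D1:**
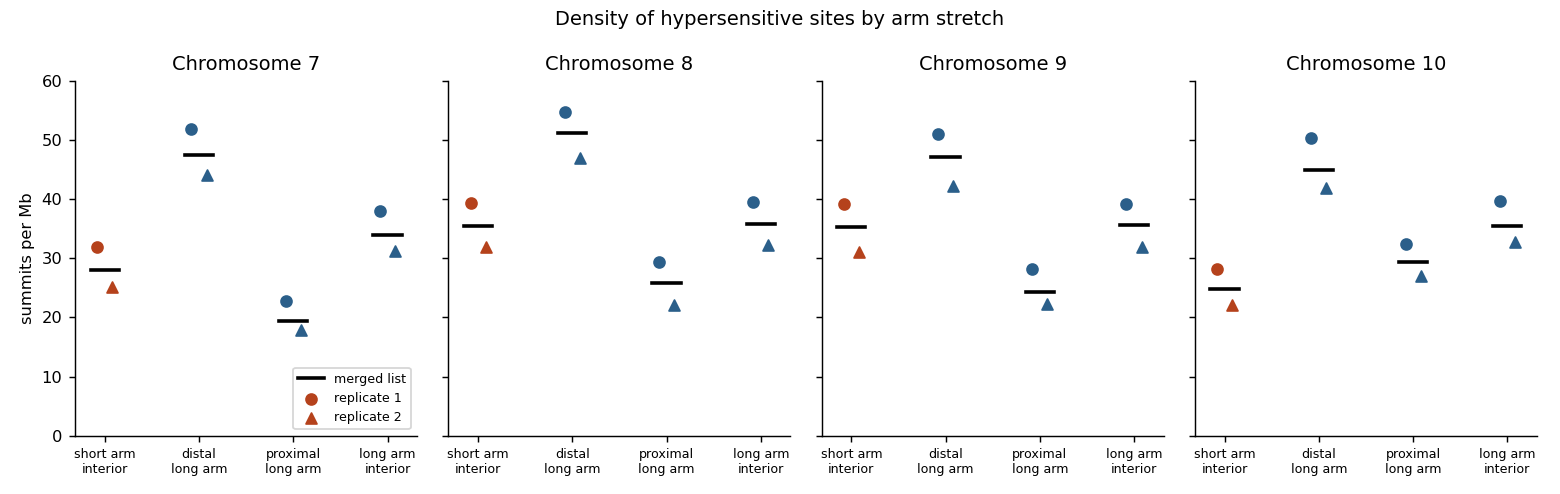
Summits per Mb in 4 stretches of chromosomes 7 to 10: the short arm interior (red), the distal and proximal long arm stretches of equal length and the whole long arm interior (blue), with replicate 1 as circles, replicate 2 as triangles and the merged list as bars. Short arms lie below the distal long arm stretch on all 4 chromosomes, and only on chromosome 10 does the short arm also lie below the proximal stretch.

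Within the short arms sites were densest on the outer side. Each interior was divided into 5 equal parts, numbered 1 at the outer side to 5 at the centromere side. Averaged over the 4 short arms, density was 41.0 ± 5.29, 33.8 ± 6.81, 31.7 ± 9.75, 27.5 ± 5.63 and 20.7 ± 2.43 summits per Mb in parts 1 to 5 (SD over 4 chromosomes). The outermost part was denser than the innermost on 4 of 4 chromosomes, with a mean log2 ratio of 0.99 ± 0.16, or 1.98-fold (exact permutation p = 0.125, adjusted 0.25). The ratio was 0.88 in replicate 1 and 1.05 in replicate 2 (mean 0.96 ± 0.12, SD, n = 2).

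The 4 short arms reached their inner level in different ways. Chromosome 8 was level through its first 3 parts, at 38.1, 41.6 and 41.1 summits per Mb, before 33.9 in part 4 and 22.4 in part 5. Chromosome 10 was already sparse in part 3, with 37.7, 28.6, 19.2, 21.2 and 17.5 summits per Mb from part 1 to part 5. Chromosome 9 started highest, at 48.9, had 37.4 in both part 2 and part 3, then 30.1 and 22.7. Chromosome 7 had 39.4, 27.6, 28.9, 24.6 and 20.0.

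The long arms were denser on the outer side and similar on the inner side. Their 5 parts averaged 54.6 ± 1.36, 37.7 ± 2.82, 32.3 ± 2.95, 28.7 ± 1.69 and 22.6 ± 5.08 summits per Mb. In part 1 the short arms, at 37.7 to 48.9, did not overlap the long arms, at 52.7 to 55.7. In parts 2, 3, 4 and 5 the ranges of the short and long arms overlapped. Parts of the long arms span 15.8 to 22.0 Mb and those of the short arms 6.20 to 7.20 Mb, so equal parts are not equal distances. The outer-over-inner log2 ratio was lower in the short arm by a mean of -0.31 ± 0.33 on the log2 scale, on 3 of 4 chromosomes, and on chromosome 10 it was higher by 0.12 (exact permutation p = 0.25, adjusted 0.278).

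**Figure D2:**
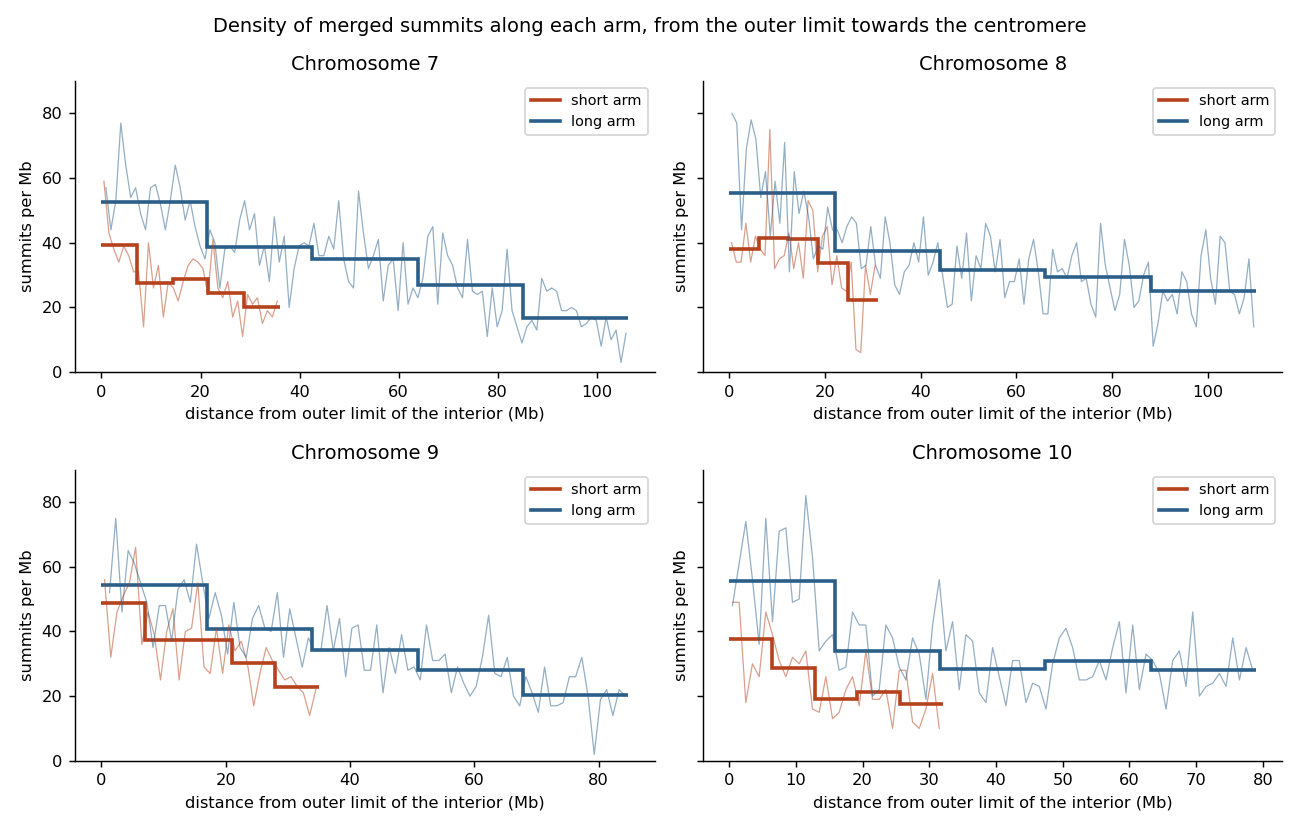
Merged summits per Mb against distance in Mb from the outer limit of the interior, for the short (red) and long (blue) arm of each chromosome. Thin lines are 1 Mb windows and thick steps are means of 5 equal parts. In part 1 the short arms held 37.7 to 48.9 summits per Mb and the long arms 52.7 to 55.7. Part 1 spans 6.20 to 7.20 Mb of a short arm but 15.8 to 22.0 Mb of a long arm. In the outermost whole 1 Mb window the short arm was lower only on chromosome 8, with 40 summits against 80. On chromosomes 7, 9 and 10 it held 59, 56 and 49, against 57, 52 and 48 in the long arm. Short arms end at 17.5 to 22.7 summits per Mb in part 5.

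Single windows of 1 Mb show where these densities come from. The 134 windows of the short arms held a median of 30.5 merged summits (interquartile range 23 to 38), against 34 (24.5 to 43.5) in the 379 whole windows of the long arms. By chromosome the short arm medians were 27 on chromosome 7, 34 on chromosome 8, 34 on chromosome 9 and 26 on chromosome 10. At least 50 summits stood in 9 of the 134 short arm windows, and in 49 of the 379 long arm windows. Chromosome 9 had 5 of the 9 and chromosome 10 had none. Replicate 1 listed more summits than replicate 2 in 131 of the 134 short arm windows, and in the other 3 the replicates tied.

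The densest short arm window lay on chromosome 8 at chr8:13000001-14000000, with 75 merged summits, 80 in replicate 1 and 71 in replicate 2. The densest of chromosome 9 was chr9:10000001-11000000, with 66 merged summits, 71 in replicate 1 and 57 in replicate 2. On chromosome 7 it was the first window inside the limit, chr7:5000001-6000000, with 59, 71 and 58. On chromosome 10 it was likewise the first, chr10:5000001-6000000, with 49, 57 and 47, tied with 1 other window. The densest windows of chromosomes 8 and 9 thus lay well inside the arm rather than at its outer limit.

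In the merged list the emptiest window of the 4 short arms was chr8:32000001-33000000, with 6 merged summits, 13 in replicate 1 and 7 in replicate 2. The window beside it, chr8:31000001-32000000, had 7 merged summits but fewer in each replicate, with 7 in replicate 1 and 6 in replicate 2. Chromosome 10 had 10 at chr10:29000001-30000000, a count shared by 3 of its windows. Chromosome 7 had 11 at chr7:33000001-34000000, and chromosome 9 had 14 at chr9:38000001-39000000. In each short arm the emptiest window named here lay nearer to the centromere side of the interior than to its outer limit.

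The rule's limits cut through a gradient, and the windows on either side of them differed in both directions. At the outer limit the window inside and the window outside held 59 and 40 merged summits on chromosome 7, 40 and 42 on chromosome 8, 56 and 43 on chromosome 9, and 49 and 75 on chromosome 10. At the centromere side they held 22 and 23 on chromosome 7, 33 and 22 on chromosome 8, 22 and 16 on chromosome 9, and 10 and 16 on chromosome 10. On chromosome 10 the dense end of the arm therefore lies partly outside the interior.

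Among the whole arm interiors compared, long stretches without a merged summit were most frequent per Mb in the short arm of chromosome 10. It had 11 stretches over 250 kb between neighbouring merged summits, or 3.44 per 10 Mb, which together made up 11.1% of the interior. The short arms of chromosomes 7, 8 and 9 had 4 each, or 1.11, 1.29 and 1.14 per 10 Mb. The long arms of chromosomes 7, 8, 9 and 10 had 2.16, 0.545, 1.30 and 0.886 per 10 Mb. Such stretches were not counted in the proximal long arm stretches of equal length. That of chromosome 7 was sparser than the short arm of chromosome 10, with 19.4 summits per Mb against 24.8. The longest short arm stretch ran for 654 kb on chromosome 8 between summits at 31657477 and 32311777, with 3 summits of replicate 1 and 1 of replicate 2 inside it. The longest on chromosome 7 was 465 kb (13063828 to 13529234), on chromosome 10 it was 428 kb (32589032 to 33016658), and on chromosome 9 it was 296 kb (36946695 to 37242869). Inside these lay 2, 4 and 1 summits of replicate 1 and 0, 0 and 2 of replicate 2.

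Among the 4 short arms, solitary sites, with no other merged summit within 50 kb, were also most frequent on chromosome 10. They made up 8.55% of the members on chromosome 10 (68 sites, Wilson 95% interval 6.80 to 10.7%), 5.24% on chromosome 7, 4.69% on chromosome 9 and 3.19% on chromosome 8, and 5.17% of all members, against 3.68% in the long arms. The share over the whole merged list was 4.76%. It was 7.26% in the proximal long arm stretches and 1.75% in the distal ones. Of the proximal stretches only that of chromosome 7, at 10.2%, lay above the short arm of chromosome 10. The Wilson interval covers counting error only, since neighbouring peaks are not independent.

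Short-range spacing gave no settled difference between the arms. For 771 of the 4141 members (18.6%) the following summit was at most 1 kb away, against 18.0% in the long arms, and 17.8% over the whole merged list. The difference of short minus long was -2.07 percentage points on chromosome 7, 0.874 on chromosome 8, 2.99 on chromosome 9 and 0.323 on chromosome 10, with a mean of 0.529 ± 2.08 (exact permutation p = 0.625, adjusted 0.625). A p of this size does not show that the arms are equal. Without chromosome 9 the mean was -0.292, and in replicate 1 alone it was -0.0246, so its direction was not settled.

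Runs of 3 or more summits, each within 1 kb of the next, numbered 115 in the short arms and held 365 members (8.81%), against 321 runs with 1004 summits (7.51%) in the long arms. Chromosome 7 went the other way, with 6.32% in the short arm and 7.55% in the long arm. The difference between the arms was not tested, and the share in runs over the whole merged list was not computed. Chromosome 9 had most in its short arm, with 41 runs and 132 summits (10.7%), and that of chromosome 7 fewest, with 20 runs and 64 summits (6.32%). The largest runs had 5 summits, at chr7:38324015-38325671, chr8:25491451-25493203 and chr9:20023685-20025209. Fold enrichments in these 3 runs spanned 5.12 to 9.16, 5.28 to 13.0 and 5.14 to 7.37, and 3, 4 and 3 of their summits had a counterpart in both replicates.

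Peak widths in the short and long arms differed little. The median merged width was 214 bp in the short arms (interquartile range 132 to 312 bp) and 221 bp (140 to 323 bp) in the long arms. In the proximal long arm stretches it was 216 bp, and in the distal ones 223 bp. By chromosome it was 204.5 bp in the short arm and 227.5 bp in the long arm of chromosome 7, 218 and 215 bp on chromosome 8, 216 and 222 bp on chromosome 9, and 215 and 220 bp on chromosome 10. The mean difference was -7.75 ± 10.9 bp, negative on 3 of 4 chromosomes (exact permutation p = 0.25, adjusted 0.278), and it was -2.67 bp without chromosome 7. The replicate lists gave mean differences of -11.2 and -5.75 bp (mean -8.50 ± 3.89 bp, SD, n = 2).

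Widths were bimodal in the short arms too. The fullest 20 bp bin was 80 to 99 bp, with 456 members (11.0%), counts were lowest between the modes at 120 to 139 bp, with 222, and a second mode of 288 stood at 180 to 199 bp. Narrow sites, under 130 bp, made up 24.3% of the members (1005, Wilson 95% interval 23.0 to 25.6%), against 22.3% of the long arm peaks and 22.8% of the whole merged list. The difference was largest on chromosome 7, with 26.5% in the short arm and 21.7% in the long arm, and averaged 1.89 ± 2.32 percentage points, positive on 3 of 4 chromosomes and 0.929 without chromosome 7 (exact permutation p = 0.25, adjusted 0.278). The replicate lists gave mean differences of 3.34 and 2.05 percentage points (mean 2.69 ± 0.914, SD, n = 2). The widest members were chr9:24437945-24438958 at 1014 bp, chr10:16081041-16081905 at 865 bp, chr7:11267224-11268059 at 836 bp and chr8:10724898-10725708 at 811 bp. Their fold enrichments were 6.91, 11.2, 6.83 and 10.2, far from the maximum of 56.8 among the members.

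Fold enrichment, the authors' deposited ratio of each peak over background, had a slightly higher median in the short arms than in the whole long arm interiors. The median was 7.50 in the short arm and 7.31 in the long arm of chromosome 7, 7.55 and 7.47 on chromosome 8, 7.49 and 7.33 on chromosome 9, and 7.93 and 7.59 on chromosome 10. The mean difference of 0.191 ± 0.105 was positive on 4 of 4 chromosomes (exact permutation p = 0.125, adjusted 0.25). It was 0.0431 in replicate 1 and 0.210 in replicate 2 (mean 0.127 ± 0.118, SD, n = 2), so the libraries differed in its size. The mean difference is smaller than the median step of 0.223 between the 30 commonest fold enrichments of the merged list. Only 6.66% of merged peaks have those values. Against the proximal long arm stretches the order turned on 3 of 4 chromosomes: the short arm and proximal medians were 7.50 and 7.92 on chromosome 7, 7.55 and 7.66 on chromosome 8, and 7.49 and 7.61 on chromosome 9. On chromosome 10 they were 7.93 and 7.79.

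Median fold enrichment was highest in the part next to the centromere side in the short arms of chromosomes 7, 9 and 10. On chromosome 10 the median fold enrichment was 7.35, 7.24, 7.84, 8.81 and 8.92 from part 1 to part 5, highest in parts 4 and 5. On chromosome 7 part 5 had the highest median of that arm, at 8.56, against 7.30 in part 1. On chromosome 9 part 5 was also the highest, at 7.81, against 7.37 to 7.57 in the other parts. On chromosome 8 no such order appeared, with 7.65 in part 1 and 7.25 in part 5. Long arm medians averaged 7.23 ± 0.152 in part 1 and 7.73 ± 0.148 in part 5.

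Sites of each strength were sparser in the short arms than in the distal long arms. Merged peaks were ranked by fold enrichment into 5 equal groups over the whole list, so that each group holds 20.0% of all peaks. The weakest group had 5.83 summits per Mb in the short arms and 9.59 in the distal long arms, a mean log2 ratio of -0.75 ± 0.30 over the 4 chromosomes. The strongest group had 6.52 and 8.78 summits per Mb, a mean log2 ratio of -0.44 ± 0.14. The 3 groups between them, from weaker to stronger, had mean log2 ratios of -0.68 ± 0.08, -0.84 ± 0.43 and -0.51 ± 0.20, so the ratio did not follow strength step by step. All 5 groups were below 0 on 4 of 4 chromosomes, and differences between groups were not tested. Of the members, 21.1% (Wilson 95% interval 19.9 to 22.4%) were in the strongest group, against 18.4% in the distal stretches, 23.1% in the proximal ones and 19.5% in the whole long arm interiors. In the weakest group were 18.9% of the members, against 20.1% in the distal stretches, 20.0% in the proximal ones and 20.2% in the whole long arm interiors.

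**Figure D3:**
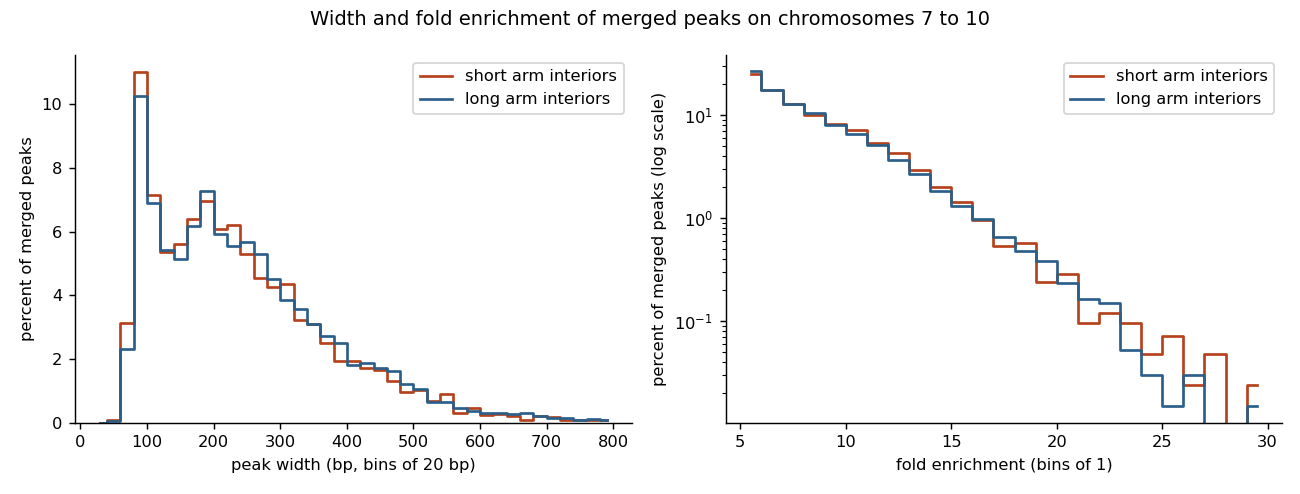
Percent of merged peaks by width (bins of 20 bp, shown up to 800 bp) and by fold enrichment (bins of 1, shown up to 30, log scale) in the short (red) and long (blue) arm interiors of chromosomes 7 to 10. The width curves share their modes at 80 to 99 bp and 180 to 199 bp, and the fold enrichment curves run together up to about 17, above which bins hold few short arm peaks.

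Members had counterparts in the replicates about as often as the rest of the list. Of the 4141 members 3166 (76.5%, Wilson 95% interval 75.1 to 77.7%) overlapped a peak of both replicates by at least 1 bp, against 76.9% in the long arms and 76.5% of all merged peaks. A further 694 (16.8%) overlapped a peak of replicate 1 only, 205 (4.95%) one of replicate 2 only and 76 (1.84%) neither. The share found in both differed from the long arm by -0.362, -0.114, -0.367 and -0.958 percentage points on chromosomes 7, 8, 9 and 10 (mean -0.450 ± 0.359, exact permutation p = 0.125, adjusted 0.25). The direction turned to 1.03 percentage points when summits within 50 bp were asked for in place of overlap. The merged list is for the same libraries, so this overlap is no independent evidence of recurrence.

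Members found in 1 replicate were narrower and weaker, as were such peaks in the long arms. Those found in both had median width 246 bp and median fold enrichment 8.58. Those with a replicate 1 counterpart only had 118.5 bp and 5.58, those with a replicate 2 counterpart only had 105 bp and 5.44, and those with neither had 90 bp and 5.14. In the long arms the values were 253 bp and 8.38 for both, and 128 bp and 5.54 for replicate 1 only. They were 114 bp and 5.40 for replicate 2 only, and 88 bp and 5.14 for neither. Read from the replicate lists, which the rule did not use, 69.2% of the 4640 replicate 1 peaks in the short arms overlapped a replicate 2 peak, against 69.5% over the whole list. Of the 3692 replicate 2 peaks there, 88.0% overlapped a replicate 1 peak, against 86.5% over the whole list.

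Where both replicates had a site they placed its summit closely. Over the 3166 members found in both, the replicate summits were a median of 13 bp apart, and 66.0% were within 20 bp, against 14 bp and 63.5% in the long arms. The share within 20 bp ran from 65.0% on chromosome 9 to 67.8% on chromosome 7. Replicate 1 gave the higher fold enrichment for 2355 of the 3166 (74.4%), with a median log2 ratio of 0.20, and 99.0% of the pairs were within 2-fold.

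The strongest site of the short arms stood alone on chromosome 7. It lay at chr7:38726636-38726803 (168 bp), where fold enrichment reached 56.8 (merged list), 56.0 (replicate 1) and 46.8 (replicate 2), ranks 5, 5 and 6 of those lists. Its summits in the replicates were 2 and 0 bp from the merged one, and the nearest other merged summit was 84.8 kb away. It lies in part 5, the sparsest of that arm. The next on chromosome 7 were chr7:8517367-8517666 at 27.4, chr7:22371766-22371958 at 25.6, chr7:11521868-11522171 at 25.6 and chr7:5796439-5796763 at 25.1. The leading site thus stood far above the others of its arm, and the strongest site of the long arm of chromosome 7, at chr7:155440277-155440455, reached 44.3.

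On chromosome 8 strength was spread over 3 sites. The site at chr8:23135681-23135816 (136 bp) reached 32.4 merged, with 32.8 in replicate 1 and 30.0 in replicate 2. A wide site at chr8:10630294-10630846 (553 bp) reached 31.6, with 31.2 in replicate 1 and 26.6 in replicate 2. The site at chr8:31657386-31657559 (174 bp) reached 29.5, with 27.0 and 27.2. Its summit, at 31657477, is the outer edge of the 654 kb stretch without a merged summit, and another summit lies 0.653 kb from it. Sites at chr8:9157104-9157474 and chr8:18024427-18024683 followed with 24.0 and 23.6.

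On chromosome 9 the leading site, chr9:19753285-19753703 (419 bp), had 27.5 merged, 24.3 in replicate 1 and 26.4 in replicate 2, with another summit 0.485 kb away. The second, chr9:38447860-38448106 (247 bp), had 26.9 merged, 31.5 in replicate 1 and 23.8 in replicate 2. It was isolated by 79.3 kb and fell in the emptiest window of that arm. The third, chr9:18570099-18570235 (137 bp), had 24.6 and a neighbouring summit at 0.239 kb. Sites at chr9:7696694-7697023 and chr9:33091813-33092034 had 22.9 and 22.3.

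Chromosome 10, with 795 members, had none among the 100 strongest merged peaks, which are 0.150% of the whole list. Its leading site, chr10:15452823-15453065 (243 bp), had 23.2 merged, 21.0 in replicate 1 and 17.1 in replicate 2, and ranked 167 in the merged list. It was followed by chr10:14677150-14677383 at 21.9, chr10:23207740-23208137 at 20.3, chr10:18098560-18098900 at 18.9 and chr10:19051070-19051536 at 18.2. The strongest site of its long arm, chr10:136845367-136845743, reached 34.8. This arm thus combined the highest median with the lowest maximum of the 4 short arms.

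All 20 of these sites had a counterpart in both replicates, and replicate 1 gave the higher fold enrichment for 15 of them. Their widths ran from 136 to 553 bp with a median of 278.5 bp, and 5 were under 200 bp. No replicate summit was more than 32 bp from the merged one. The 20 were picked as the strongest of the merged list, which is for the same libraries, so these matches are no independent evidence of recurrence. Replicate 1 was also the higher for 74.4% of all members found in both. The short arms held 8 of the 100 strongest merged peaks, with 3 on chromosome 7, 3 on chromosome 8 and 2 on chromosome 9, and the long arms held 13. These are 0.193% of the members and 0.0972% of the long arm peaks, against 0.150% of all merged peaks. Of the 1000 strongest, 63 were members: 20 on chromosome 7, 21 on chromosome 8, 18 on chromosome 9 and 4 on chromosome 10. That is 1.52% of the members, against 1.44% of the long arm peaks and 1.50% of all merged peaks.

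**Figure D4:**
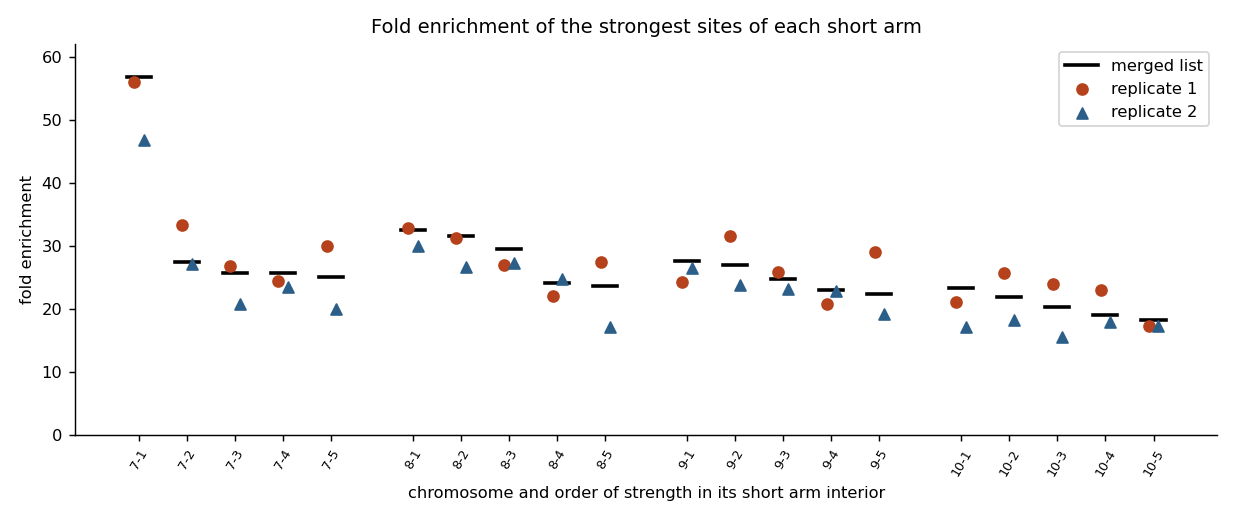
Fold enrichment of the 5 strongest merged peaks of each short arm interior, in the merged list (bars), replicate 1 (circles) and replicate 2 (triangles), ordered by chromosome and by strength. The leading site of chromosome 7, at 56.8, stands above the other 19, and the 5 sites of chromosome 10 lie between 18.2 and 23.2.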

How the data were processed

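Leaf MH-seq of B73 maize was deposited as 3 peak lists, for replicates 1 and 2 and for both merged. Per the submitters' processing notes, the build is B73 RefGen_v4 and the software named is MACS2, Bowtie2, fastp 0.20.0, SAMtools 1.5, deepTools and ChIPseeker. Their settings and the way of merging the replicates are not given in the sources. The deposited fold enrichment is a ratio over background, by the authors, and no peak is below 5. The deposited −log10 q was used only as an alternative threshold.

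Arms were compared with Python 3.11.15, numpy 2.4.6, pandas 2.3.3 and scipy 1.17.1, taking the 4 chromosomes as units in exact two-sided sign-flip permutation tests with Benjamini-Hochberg adjustment over 10 tests. Simulated peaks with planted values tested the short-over-long density ratio, the gradients, the recurrence, the median width and the median fold enrichment. The distal and proximal density ratios, the narrow share and the 1 kb spacing were not tested in this way. The lists hold 66801 peaks merged, 74443 in replicate 1 and 60518 in replicate 2. Depth is unknown. Peak number does not measure it, since the merged list, for both replicates, has fewer peaks than replicate 1. Shares carry Wilson 95% intervals. For each short arm the text names the 5 strongest merged peaks, the widest one and the densest and emptiest 1 Mb window. It also names the longest stretch without a merged summit. Of each long arm it names the strongest peak. The largest runs and the window beside the emptiest one of chromosome 8 were added. The regions, measures and the 130 bp limit were chosen with earlier results of these data known. Alternatives varied the list, thresholds, joining, limits, overlap, distances and chromosomes. Genes and sequences were not used here, since the only gene table given has the coordinates of a different build.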

Additional observations from a re-analysis of the deposited data

How the results depend on the processing

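Each mean difference or ratio kept its direction under every alternative tried, except the recurrence and the 1 kb spacing. The number of chromosomes sharing that direction was less steady. The short-over-long density ratio, below 0 on 4 of 4 chromosomes, was below 0 on 3 with fold enrichment of at least 7. With interiors narrowed by 2 Mb at each side it was below 0 on 2. The width difference was negative on 2 without replicate 1. The narrow share difference was positive on 2 among merged peaks found in both replicates. The short-over-long log2 density ratio ran from -0.27 to -0.10 under 12 alternatives, short over distal from -0.72 to -0.57, and short over proximal from 0.25 to 0.51. The share found in both replicates, -0.450 percentage points, turned to 0.660 with fold enrichment of at least 7 and to 1.03 with summits within 50 bp. The 1 kb spacing, 0.529 percentage points, turned to -0.127 at 5 kb and to -0.292 without chromosome 9, and ran from -0.0246 to 1.13 with either replicate left out. The 4141 members became 2379 with fold enrichment of at least 7, which keeps fewer peaks by construction, and 3692 to 4640 with either replicate left out. The cause of the reversals was not tested. With a smallest p of 0.125, or 0.25 without a chromosome, the tests say nothing about stability. No paired analysis of samples was possible because there is only 1 group of samples. In the comparisons between arms, the arms were paired within each chromosome. As read totals are unknown, absence of a peak near the fold enrichment limit of 5 does not show absence of a site.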

Other observations

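The short arm of chromosome 10 had an uneven spread over the 5 equal groups of fold enrichment. Its groups, weakest first, held 130, 182, 115, 191 and 177 members, with exact Poisson 95% intervals, for counting error only, of 109 to 154, 157 to 210, 94.9 to 138, 165 to 220 and 152 to 205. The short arm of chromosome 8 held 212, 225, 219, 218 and 224, and the long arm of chromosome 10 held 512, 584, 558, 570 and 575. The middle group, with fold enrichments of 6.76 to 8.32, was thus low in the short arm of chromosome 10, a feature picked out after its values were seen and not tested.

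Density was also taken in bases. Peaks whose summit lay in the interior summed to 0.654% of its length on chromosome 7, 0.863% on chromosome 8, 0.849% on chromosome 9 and 0.610% on chromosome 10 in the short arms, against 0.863%, 0.874%, 0.889% and 0.875% in the long arms. Tied values were common in the authors' fold enrichment: 34.4% of merged peaks shared their value with another, and 46 members had the commonest value, 5.14.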
